A study of Mus musculus with 3 samples.

Results

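The p53 target genes described here are 10 genes that the transcription factor p53 is known to switch on and that lie outside the Bcl2 family: Mdm2, Ccng1, Gtse1, Trp53inp1, Phlda3, Perp, Aen, Zmat3, Sesn2 and Plk2. They were found by matching the gene symbol of each probe, updated to its current form, and all 10 were measured, by 17 of the 38880 probes of the array. They are 10 of the 19855 named genes and 28196 features tested. RNA of dissected cerebella at postnatal day 10 came from Smarca5 conditional knockout (cKO) mice and from wild-type mice, both labelled as C57Bl/6. Each of 3 arrays carried 1 cKO and 1 wild-type sample in opposite colours, with the cKO in Cy5 on replicates 1 and 2 and in Cy3 on replicate 3. The labels name neither the Cre line of the cKO nor whether the wild-type mice carried any engineered allele, and they do not say whether samples were single animals or pools. A p-value here thus reflects only spread between arrays, that of a gene's 3 values, moderated in limma by that of all features. Part of that spread could be technical.

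Smarca5 encodes the ATPase of ISWI chromatin remodelers, which space nucleosomes. p53 is held low in unstressed cells by the ubiquitin ligase Mdm2, itself a p53 target, and is stabilised by DNA damage and other stress. Its targets feed back on p53, halt the cell cycle, start cell death, or adjust metabolism and RNA turnover. In the developing cerebellum the pathway is known for the death of dividing granule cell progenitors after DNA damage.

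Promoter sequences show whether the letters that p53 is known to bind stand close to the start of each gene. RefSeq promoters (build GRCm38.p6, 250 bases before to 50 bases after a transcription start) were held for 7 of the 10 genes, in 9 windows. They were searched for the 10-base p53 decamer consensus, which reads the same on both strands, without mismatch. Ccng1, Gtse1, Mdm2 and Aen had a match, 4 of 7, and Phlda3, Sesn2 and Plk2 had none in these windows, while 9.55% of the 27025 genes with such a promoter have one. Pairs of decamers with at most 1 mismatch in all and at most 13 bases between them were present in Ccng1 and Gtse1, and in 0.718% of all genes. Of these windows, 4 are shown to set Phlda3, the gene farthest from 0 on the arrays, beside 3 genes that hold a match. The last bases of the Phlda3 window, gaacatgt, fit the start of the decamer. The window cuts that stretch off, so it could not be scored. Each is written 5′ to 3′ on the strand of the gene. Capitals mark a pair with no spacer for Ccng1 and Gtse1 and a single decamer without mismatch for Mdm2. In each pair the first decamer holds 1 mismatch and the second holds none. The windows are chr1:135765835-135766134 (plus strand) for Phlda3, chr11:40755237-40755536 (minus strand) for Ccng1, chr15:85859696-85859995 (plus strand) for the downstream start of Gtse1 and chr10:117710709-117711008 (minus strand) for Mdm2.
Phlda3: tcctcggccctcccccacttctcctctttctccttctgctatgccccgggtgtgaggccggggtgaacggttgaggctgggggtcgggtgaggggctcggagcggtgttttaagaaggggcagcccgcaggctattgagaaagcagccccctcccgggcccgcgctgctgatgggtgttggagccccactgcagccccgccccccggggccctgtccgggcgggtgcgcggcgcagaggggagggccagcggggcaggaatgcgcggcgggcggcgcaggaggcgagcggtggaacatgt
Ccng1: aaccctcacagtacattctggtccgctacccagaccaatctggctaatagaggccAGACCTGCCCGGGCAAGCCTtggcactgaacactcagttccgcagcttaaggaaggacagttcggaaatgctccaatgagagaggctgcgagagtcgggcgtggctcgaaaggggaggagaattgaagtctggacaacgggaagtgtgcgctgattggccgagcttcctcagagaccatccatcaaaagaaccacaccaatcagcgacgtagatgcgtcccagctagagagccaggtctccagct
Gtse1: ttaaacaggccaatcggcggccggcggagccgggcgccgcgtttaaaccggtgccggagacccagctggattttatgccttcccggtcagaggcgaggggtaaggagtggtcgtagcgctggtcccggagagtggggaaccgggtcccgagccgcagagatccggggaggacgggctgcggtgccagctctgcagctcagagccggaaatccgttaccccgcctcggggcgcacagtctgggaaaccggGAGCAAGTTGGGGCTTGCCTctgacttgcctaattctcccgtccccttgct
Mdm2: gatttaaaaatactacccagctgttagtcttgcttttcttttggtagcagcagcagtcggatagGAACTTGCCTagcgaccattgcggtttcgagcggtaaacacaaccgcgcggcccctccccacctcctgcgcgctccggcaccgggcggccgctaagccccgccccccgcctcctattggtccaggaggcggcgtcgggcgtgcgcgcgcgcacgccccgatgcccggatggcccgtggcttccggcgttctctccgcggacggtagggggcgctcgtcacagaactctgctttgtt

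The marked site of Ccng1 lies 195 to 176 bases before the start, and that of Mdm2 lies 186 to 177 bases before it. The site of Gtse1 runs over the start, from the last base before it to base 19 after it, and the upstream window of Gtse1 held none. In Aen the decamer GGGCTTGTCC lies 121 to 112 bases before the downstream start, and the same bases lie 11 to 20 after the upstream start, since its windows overlap. A match describes letters and does not show binding in these cerebella.

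On the arrays, Phlda3 was the only one of the 10 genes with a mean at least 0.5 in size, a size that 22.1% of all features reached, and the other 9 lay between -0.30 and 0.33. Values are log ratios of cKO over wild type, read as log2, so a value below 0 means lower in the cKO. The log base is not given in the sources used here, and fold changes hold only if it is 2. The ratio was read as channel 2 over channel 1, which rests on the labels and in part on Smarca5 being lower in that direction, so the sign of Smarca5 checks nothing independently. Smarca5 had -0.75, -0.96 and -0.88 on replicates 1, 2 and 3, as the average of 2 probes that differed in size, UT29744 at -1.28 ± 0.15 and UT02083 at -0.44 ± 0.26 (SD, n = 3). The files used here hold ratios without intensities, so the level of a gene, its signal over background and the presence of the tissue's own markers could not be read. RNA came from whole tissue, where fewer cells of a type and less RNA per cell cannot be told apart.

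None of the 10 genes passed an adjusted p of 0.05 in limma (Benjamini-Hochberg over all 28196 features), and 0% of all features did. Before adjustment, 1 of 10 (Phlda3) had a limma p under 0.05, against 20.9% of all features. Of the 10 genes, 5 were above 0 on all 3 arrays, against 22.1% of all features: Phlda3, Perp, Zmat3, Sesn2 and Plk2. A further 2, Trp53inp1 and Ccng1, were below 0 on all 3 arrays, against 21.4% of all features. The remaining 3, Mdm2, Gtse1 and Aen, changed sign between arrays. These 3 are among the 4 genes with several probes, the other being Ccng1. All 6 genes measured by a single probe kept 1 sign, and no second probe checks any of them. Of their 17 probes taken singly, 6 were above 0 and 3 below 0 on all 3 arrays, against 21.9% and 21.8% of all probes. The median of the 10 gene means was 0.08, against 0.003 over all features. The median size of the means was 0.227, close to the 0.24 of all features. The median SD over arrays was 0.132, against 0.286 over all features. Over the 19855 named genes alone, the median SD was 0.248, with 24.9% above and 22.1% below 0 on all 3 arrays.

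**Figure D1:**
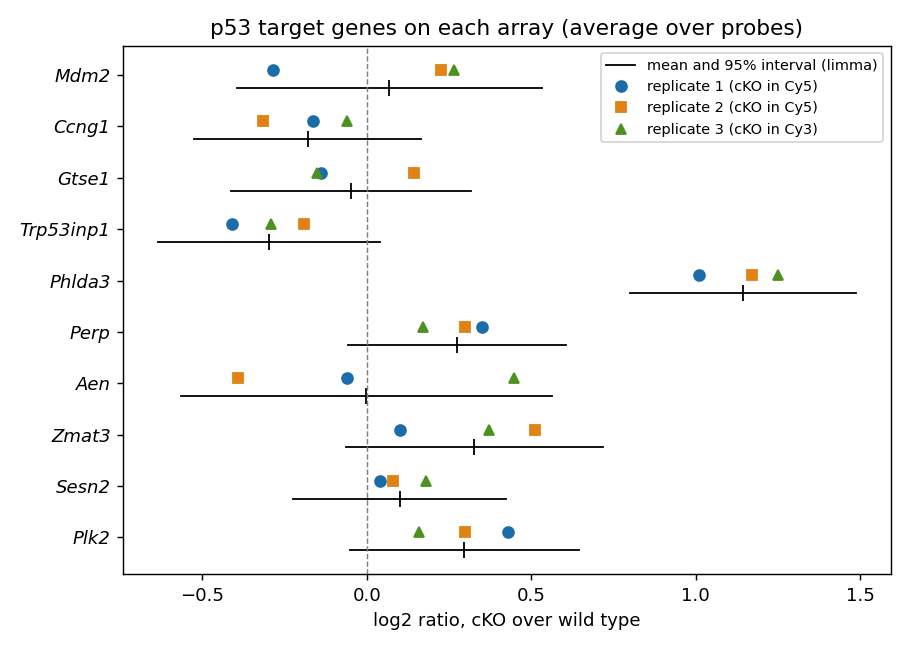
Log2 ratio of cKO over wild type for each of the 10 p53 target genes (rows), with 1 point per array, and below it the mean with limma's 95% interval. Phlda3 lies between 1.01 and 1.25 on the 3 arrays, and the intervals of the other 9 genes include 0.

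Among the genes that act on p53 itself, Mdm2, the ligase that marks p53 for destruction, had -0.28, 0.23 and 0.27 on replicates 1, 2 and 3. Replicate 1 stood on the other side of 0 from the others. The mean was 0.07 ± 0.31 (SD, n = 3), with a 95% interval from limma of -0.40 to 0.53. The direction of its mean rests on single arrays, at -0.01 without replicate 2 and -0.03 without replicate 3, against 0.245 without replicate 1. Its 2 probes did not behave alike on the arrays. Probe UT28408 had -0.03, 0.47 and -0.11, highest on replicate 2. Probe UT32274 had -0.54, -0.02 and 0.64, highest on replicate 3.

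Ccng1 encodes cyclin G1, which brings a phosphatase to Mdm2 and so takes part in the same feedback. It had -0.17, -0.32 and -0.06 on the 3 arrays, all below 0, with a mean of -0.18 ± 0.13 (SD, n = 3) and an interval of -0.53 to 0.17. Without replicate 2 the mean was -0.11. Its 4 probes had nearly the same mean, from -0.23 to -0.15. That range of 0.0733 was narrow beside the median range of 0.528 over the 488 named genes with 4 probes, of which 1.23% had a smaller one. On single arrays the probes were less alike: on replicate 2 they ran from -0.61 to -0.06, and probes UT04341 and UT25791 changed sign between arrays.

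Gtse1, a microtubule-binding protein of the G2 phase that moves p53 out of the nucleus, had -0.14, 0.15 and -0.15, with replicate 2 apart from the others. The mean was -0.05 ± 0.17 (SD, n = 3) and the interval -0.41 to 0.32. Each of its 2 probes was farthest from 0 on replicate 2, in opposite directions, at -0.53 for UT25574 and 0.82 for UT35527. Their means of -0.19 and 0.09 differ in sign, and without replicate 3 the mean of Gtse1 was 0.0025. Gtse1 is itself made in dividing cells, and of the list of 21 measured genes of the G2 and M phases, 10 were below 0 on all 3 arrays, against 21.4% of all features, and 1 above, against 22.1%, with a median of -0.16. Of that list 5 had a limma p under 0.05 on the lower side, against 9.98% of all features, and 1 on the higher side, against 10.9%. Cenpf, a kinetochore protein, had -0.84 ± 0.29 and Ube2c, a ubiquitin-conjugating enzyme of mitosis, had -0.60 ± 0.15 (SD, n = 3). Nusap1 had -0.65 ± 0.36, whereas Tpx2, the 1 on the higher side, had 0.51 ± 0.26 (SD, n = 3). Neither Gtse1 probe had 1 sign on the 3 arrays, and the part of dividing cells in the values of Gtse1 was not tested.

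Trp53inp1 encodes a nuclear protein that helps kinases to activate p53 and takes part in autophagy. It had -0.41, -0.19 and -0.29, below 0 on every array, and its mean of -0.30 ± 0.11 (SD, n = 3) was the lowest of the 10 genes. The limma p was 0.0714 before adjustment and 0.286 after it, with an interval of -0.63 to 0.04.

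**Figure D2:**
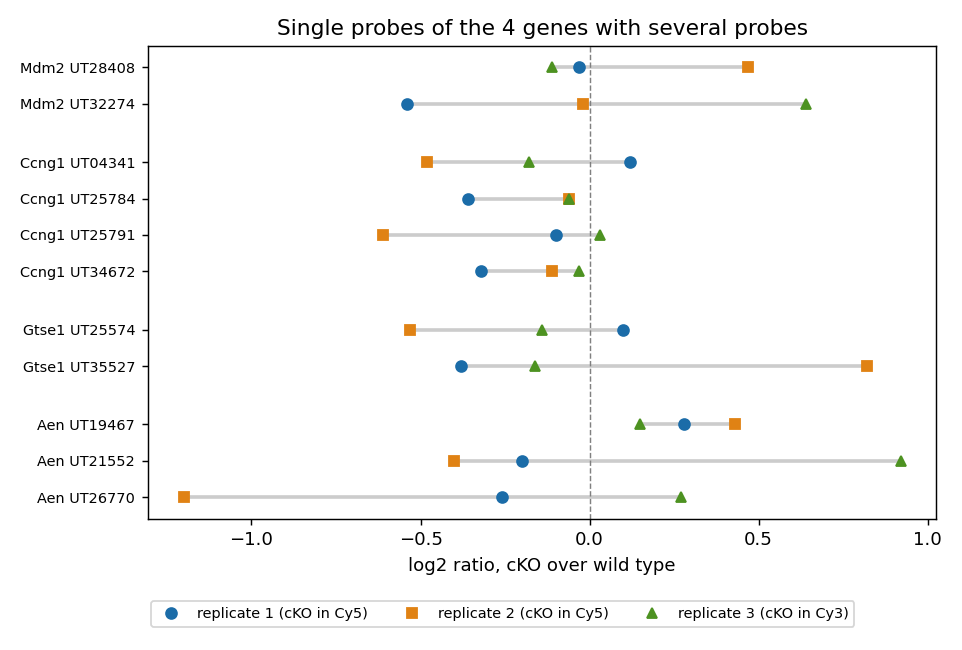
Log2 ratio of cKO over wild type of the 11 single probes of Mdm2, Ccng1, Gtse1 and Aen (rows), with 1 point per array and a grey bar from the lowest to the highest. Of the 11 probes, 8 lie on both sides of 0, with the widest bars for Aen, Gtse1 and Mdm2.

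Among the genes tied to cell death, Phlda3 stood apart. It encodes a small protein made of little more than a lipid-binding PH domain, which keeps the survival kinase Akt from the membrane. It had 1.01, 1.17 and 1.25 on replicates 1, 2 and 3, high on every array and in both dye orientations. The mean of 1.14 ± 0.12 (SD, n = 3) is 2.21-fold higher in the cKO if the base is 2, with an interval of 0.80 to 1.49. The limma p was 0.000706 before adjustment and 0.0841 after it, which misses the threshold, and 0.0841 is also the smallest adjusted p of any feature. By p it stood 214th of the 28196 features, and 2.49% of all features had a mean at least as far from 0. It was measured by a single probe, UT29548, so no second probe checks it.

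Perp, a tetraspan membrane protein of desmosomes that also promotes p53-dependent death, had 0.35, 0.30 and 0.17, all above 0. Its mean was 0.27 ± 0.09 (SD, n = 3), with an interval of -0.06 to 0.60 and a limma p of 0.0839 before adjustment. Aen, the apoptosis-enhancing nuclease, had -0.06, -0.39 and 0.45, with the dye-flipped replicate 3 on the other side of 0. Its mean of -0.0011 ± 0.42 (SD, n = 3) was 0.028 without replicate 1, 0.19 without replicate 2 and -0.23 without replicate 3, and it came from 3 probes that disagreed. Probe UT19467 was above 0 throughout, at 0.28, 0.43 and 0.15. Probe UT21552 had -0.20, -0.40 and 0.92, and probe UT26770 had -0.26, -1.20 and 0.27, so both crossed 0 on replicate 3. The probe means ran from -0.40 to 0.29, a range of 0.683 against a median of 0.407 over the 1529 named genes with 3 probes.

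The last 3 genes have other roles. Zmat3 encodes a zinc finger protein that binds RNA and steers splicing and mRNA stability. It had 0.10, 0.51 and 0.37, above 0 throughout, and a mean of 0.33 ± 0.21 (SD, n = 3) and an interval of -0.06 to 0.72. Sesn2, a leucine sensor that restrains the growth kinase mTORC1, had 0.04, 0.08 and 0.18. Its SD of 0.07 was the smallest of the 10, and 7.53% of all features had a smaller one. The mean was 0.10 and the interval -0.22 to 0.42, so a change of 0.5 in either direction lies outside it, and without replicate 3 the mean was 0.06. Plk2, a polo-like kinase of centriole duplication and of synapses in neurons, had 0.43, 0.30 and 0.16, with a mean of 0.30 ± 0.14 (SD, n = 3) and an interval of -0.05 to 0.65.

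Sesn2 and Plk2 are known to answer to signals other than p53, and lists of these signals were described beside them. Sesn2 is also induced through Atf4, the transcription factor of the integrated stress response. Of 10 genes of that response, 6 were above 0 on all 3 arrays, against 22.1% of all features, and 1 below, against 21.4%, with a median of 0.25. A limma p under 0.05 before adjustment was found for 3 on the higher side, against 10.9% of all features, and for Atf4 itself, at -0.32 ± 0.04, on the lower side, against 9.98%. The higher ones were Nupr1 (0.77 ± 0.23), a stress-induced chromatin protein, Slc7a11 (0.67 ± 0.16), the cystine transporter, and Psat1 (0.58 ± 0.07), an enzyme of serine synthesis (SD, n = 3 for each). The probes of Slc7a11 differed, with means of 0.18 for UT08690, 0.76 for UT26036 and 1.06 for UT19823. Plk2 is also induced by neuronal activity. Of 11 immediate early genes, 2 were above 0 on all 3 arrays, against 22.1%, and 4 below, against 21.4%, with a median of -0.04. Before adjustment, 3 of the 11 had a limma p under 0.05 on the lower side, against 9.98% of all features, and 1 on the higher side, against 10.9%. On the lower side were Dusp1, a phosphatase of MAP kinases (-0.99 ± 0.40), Nr4a1 (-0.58 ± 0.43) and Btg2 (-0.44 ± 0.26). Arc, a synaptic protein, was on the higher side with 0.40 ± 0.14 (SD, n = 3 for each). The part of either signal in the values of Sesn2 and Plk2 was not tested.

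Paralogs of the 10 genes, which share their sequence family and of which Sesn1 and Plk3 are p53 targets too, were set against them on the same arrays. Of 11 pairs, 6 had a difference of 1 sign on all 3 arrays. Among single features, 22.1% were above 0 and 21.4% below 0 on all 3, and the share for differences of pairs was not computed. The pairs are not independent, since Phlda3, Sesn2 and Plk2 each occur in more than 1. An exact sign-flip test on 3 arrays cannot give a two-sided p below 0.25, and these 6 pairs reached that value. By mean difference, the widest gaps were in the Phlda, cyclin G and sestrin families.

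Phlda3 exceeded Phlda1 by 1.05, 1.48 and 1.66 on the 3 arrays, with gene means of 1.14 and -0.25. It exceeded Phlda2 by 0.97, 1.25 and 1.12, with gene means of 1.14 and 0.03. Ccng1 exceeded its paralog Ccng2 by 1.16, 1.02 and 1.14. Ccng2, cyclin G2, which is known as a target of FoxO factors, had -1.32, -1.34 and -1.20, low on all of them, and a mean of -1.29 ± 0.08 (SD, n = 3) and a limma p of 0.000362 (adjusted p = 0.0841). Sesn2 exceeded Sesn1 by 0.41, 0.75 and 1.51. Sesn1, itself a p53 target, had -0.37, -0.67 and -1.33, lowest on replicate 3, whereas Sesn3 had a mean of 0.28 ± 0.19 (SD, n = 3).

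The other families lay closer together by mean difference. Plk2 (0.30) was near Plk3 (0.40 ± 0.15) and Plk4 (0.35 ± 0.05), and above the mitotic kinase Plk1 (-0.30 ± 0.17) by 0.84, 0.42 and 0.56. Trp53inp1 lay below Trp53inp2 by 0.24 on average, with differences of -0.33, -0.13 and -0.25 on the arrays. Mdm2 and Mdm4, the partner of Mdm2 that masks p53, had a mean difference of 0.21 ± 0.30 (SD, n = 3) that crossed 0. The exonuclease gene Isg20, a relative of Aen, spread from -1.36 to 1.44 over the arrays. The difference between Aen and Isg20 was wide on each array but crossed 0, at 1.30, -1.83 and 1.49.

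**Figure D3:**
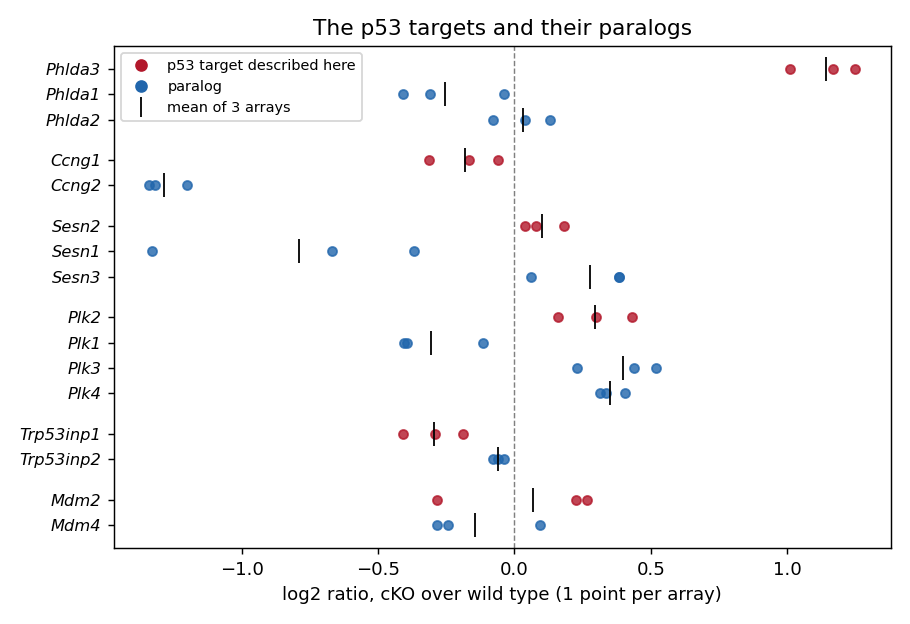
Log2 ratio of cKO over wild type for 6 of the p53 target genes (red) and their paralogs (blue), 1 point per array, with the mean as a bar. Phlda3 lies above Phlda1 and Phlda2, and Ccng1 and Sesn2 lie above Ccng2 and Sesn1, on all 3 arrays without overlap.

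Other known p53 targets outside the Bcl2 family lay on both sides of 0. Of 27 listed genes 24 were measured, with 7 above 0 on all 3 arrays, against 22.1% of all features, 9 below 0, against 21.4%, and a median of -0.04. A limma p under 0.05 before adjustment was found for 3 on the higher side and 3 on the lower side, against 20.9% of all features in either direction, and 0 of 24 passed after adjustment. Among genes of cell cycle arrest, Cdkn1a, the inhibitor p21 and the best known p53 target, had -0.80, -0.35 and -1.08, low on every array. Its mean was -0.74 ± 0.37 (SD, n = 3), with a limma p of 0.0159 (adjusted p = 0.149), and its 2 probes had -0.79 and -0.70. The unadjusted p was over 0.05 without moderation (0.0728), without replicate 1 (0.0742 in limma) and without replicate 3 (0.0623 in limma). Btg2, an antiproliferative gene that is also an immediate early gene, had -0.44 ± 0.26, and Plk3 had 0.40 ± 0.15 (SD, n = 3).

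Among death genes, the death receptor gene Fas had a mean of 0.37 ± 0.17 (SD, n = 3), but its 2 probes differed, at 0.89 ± 0.25 and -0.14 ± 0.18. Among repair and metabolism genes, Polk, a DNA polymerase that copies past lesions, had 0.45 ± 0.27, and Sesn1 had -0.79 ± 0.49 (SD, n = 3). Fdxr, Sco2 and Gls2 were not analysed here.

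Of 19 listed regulators of p53, 18 were measured and Trp53 itself was not analysed here. Of the 18, 3 were above 0 on all 3 arrays, against 22.1% of all features, and 6 below 0, against 21.4%, with a median of -0.03. Ppm1d, the phosphatase Wip1 that reverses p53 activation and is itself a p53 target, was the farthest from 0, with -1.16, -1.0 and -1.04. The array values lay close together, with a mean of -1.07 ± 0.08 (SD, n = 3) and a limma p of 0.000779 (adjusted p = 0.0841). Chek2, a kinase that activates p53 after DNA breaks, had 0.49 ± 0.08, but its 2 probes had 0.93 ± 0.20 and 0.05 ± 0.07 (SD, n = 3). The break-response protein gene Trp53bp1 had 0.38 ± 0.10 and Ep300, an acetyltransferase and p53 coactivator, had -0.37 ± 0.12 (SD, n = 3). With Usp7, a protease that spares Mdm2 and p53 from destruction, 5 of 18 had a limma p under 0.05 before adjustment, 2 on the higher and 3 on the lower side, against 20.9% of all features in either direction.

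Some genes that mark cell types had means farther from 0 than Phlda3 on the same arrays, among them Aif1 and Fcer1g of microglia (1.23 and 1.17) and Etv1 and Gabrd of granule neurons (-1.96 and -2.50). All 13 measured microglial markers were above 0 on all 3 arrays, against 22.1% of all features, with means from 0.32 to 1.23. The mean of the list was 0.86, 0.91 and 0.88 on replicates 1, 2 and 3. All 14 measured granule neuron markers had a mean below 0, from -2.50 to -0.03, and 12 were below 0 on all 3 arrays, against 21.4%. The mean of that list was -1.45, -1.28 and -0.92. The 8 choroid plexus markers had a median of 0.55, from -0.45 to 0.97, and the 10 markers of meninges and fibroblasts had 0.48, from -0.53 to 0.73. The 11 genes of brainstem and midbrain neurons had a median of 1.83, from -0.35 to 3.39. Of these, 7 had a limma p under 0.05 on the higher side, against 10.9% of all features, and 2 had a mean below 0. The oligodendrocyte lineage list was split, with a median of 0.09 over 12 genes but 5 of them at a limma p under 0.05 on the higher side, against 10.9% of all features, up to 1.20 for Opalin and 1.02 for Enpp6. Lists of Purkinje cells (0.01), endothelium and pericytes (0.09) and astrocytes with Bergmann glia (0.13) had medians nearer to 0, and the progenitors of granule cells had -0.84. The part of these shifts in the values of Phlda3 and the other 9 genes was not tested.

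**Figure D4:**
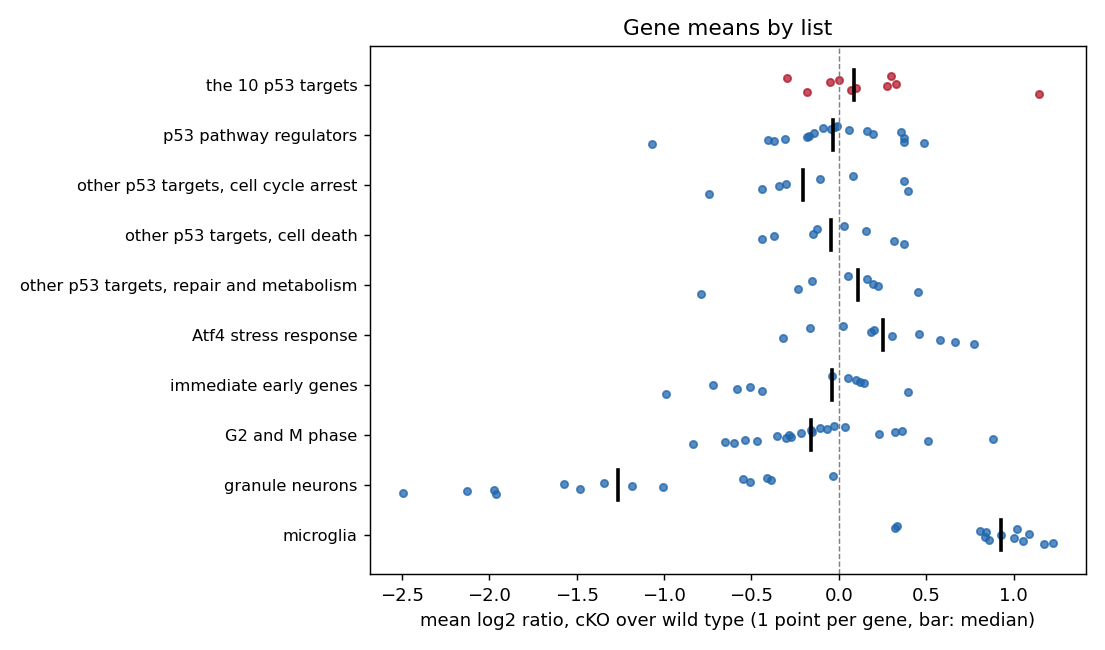
Mean log2 ratio of cKO over wild type, 1 point per gene, for the 10 p53 target genes (red) and for other lists (blue), with the median as a bar. Apart from Phlda3 at 1.14, the 10 genes lie within the range of the other p53 lists, whereas the granule neuron and microglia lists have medians of -1.26 and 0.93.

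The dye-flipped array was compared with the others for each gene. Phlda3 had 1.25 on replicate 3, against a mean of 1.09 on replicates 1 and 2. Aen had 0.45 there, against -0.23, the widest gap of the 10 genes. The median size of this gap was 0.158 over the 10 genes, against 0.3 over all features.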

How the data were processed

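The deposited values are log2 ratios of the 2 channels of an array, 1 per probe and array, and the mean and median of each array are 0. Base 2 is an assumption. How the authors scanned, corrected for background and normalized is not given in the sources used here. RNA was labelled with a dendrimer kit, per the labels' protocols. Without intensities, dim probes could not be filtered, and the number of arrays limits the precision.

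A set of 47 unnamed spots at the start of runs of 810 probes, over 5 in size on every array and following the dye, was left out. Pearson's r across the remaining probes was 0.444, 0.266 and 0.223 for replicates 1 and 2, 1 and 3, and 2 and 3. Symbols came from the platform annotation and were brought up to date with RefSeq's genes of GRCm38.p6: 19043 probes matched a current symbol, 11114 a synonym of 1 gene, and 300 kept theirs. Among the 10 genes, Zmat3 (Wig1 on the array) and Aen (2700083B06Rik) were named through a synonym.

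Probes of a gene were averaged on each array. Features measured on all 3 arrays were tested against 0 with limma 3.58.1 in R 4.3.3 (lmFit and eBayes, with 2 residual and 2.08 prior degrees of freedom), adjusted by Benjamini-Hochberg over all 28196 features at 0.05. Intervals are 95% intervals of that fit, and the fit was tested on simulated data. Single probes were fitted over all 38755 measured probes. Python 3.11.15 and pandas 2.3.3 made the tables.

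Beyond the 10 genes, the rule named Smarca5, Cdkn1a and at most 4 genes a pathway list, by smallest limma p among those of 1 sign on all arrays and p under 0.05. Usp7 and the remaining paralogs were named outside it. The genes and lists were chosen with earlier results of these data known.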

Additional observations from a re-analysis of the deposited data

How the results depend on the processing

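With 12 other settings (centring or scaling of each array, a dye term, no moderation, a robust variance prior, features on at least 2 arrays, symbols as on the array, marker spots kept, single probes, and each array left out), 109 of 119 values of the 10 genes kept their sign and 0 of 119 passed an adjusted p of 0.05 in limma. Phlda3 stayed between 1.09 and 1.21, with adjusted p from 0.0775 (single probes) to 0.379. The 10 turned values belong to Aen, Gtse1 and Mdm2, whose means are near 0, and the cause was not tested. Aen had 0.011 with scaled arrays, 0.11 with a dye term, 0.29 for probe UT19467 and 0.11 for probe UT21552, and -0.23 to 0.19 with 1 array left out. Gtse1 had 0.093 for probe UT35527 and -0.14 to 0.0025 with 1 array left out, and Mdm2 had -0.03 to 0.24 there. Among other genes, the Fas probe UT03969 had -0.14. No feature of 28196 passed in limma, with 5892 at an unadjusted p under 0.05, whereas 2 passed without moderation. Without moderation, 3 of the 10 genes (Phlda3, Perp and Trp53inp1) had an unadjusted p under 0.05, against 1 with it. With 1 array left out, 5 to 6 of the 10 genes were above 0 on every array and 2 to 3 below. With symbols as on the array, Zmat3 and Aen carry other names and drop out. The test of each array's ratio against 0 is already paired by array, so no further replicate block was fitted. Signal over background is not known here, so a dim probe cannot be told from a bright one. Besides the 10 genes and Smarca5, 23 genes followed through these settings had an unadjusted limma p under 0.05. Of these, 6 kept one under 0.05 whichever array was left out, a test with 2 arrays. Smarca5, counted apart, kept one too. Apart from Cdkn1a, the 23 had been chosen for such a p on these same arrays, and the share over all features was not computed.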
